A study of Mus musculus with 15 samples.

Results

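Ubiquitin-specific proteases (USPs) are the largest family of deubiquitinases, the enzymes that remove ubiquitin from other proteins. The family was taken here as the genes whose symbol is Usp followed by a number and, for some, 1 letter, with *Usp18* left out, which gave 49 of the 38924 genes in the files. Of these, 42 reached 1 cpm (reads scaled to a common library size) in 2 or more of the 15 libraries and were tested. The other 7 were not. Brain myeloid cells were sorted from wild type male C57BL/6J mice at 12 months of age, as CD11b+ CD3e- cells with high (CD45hi) or low (CD45lo) surface CD45, the leukocyte common antigen. The mice ate control chow diet (CD) or, from 2 months of age, a western diet (WD) with more fat, milk protein and fructose syrup and less fiber. There were 4 CD45hi and 4 CD45lo libraries from CD-fed mice, and 3 CD45hi and 4 CD45lo libraries from WD-fed mice, each of poly(A) RNA from sorted cells. No transgene or deletion was present in any group. The study's data availability statement describes the deposited counts as those of single animals. The number in each deposited name differs between the libraries of a group. It is shared by 1 CD45hi and 1 CD45lo library, except for 1 WD CD45lo library that has no partner.

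The libraries held 11951412 to 17912272 expected counts. On the first 2 principal components of all genes tested, PC1 (22.1% of the variance) separated CD45hi from CD45lo, and along PC2 (13.2%) 2 CD45hi libraries stood apart, CD replicate 4 at 93 and WD replicate 1 at -134.7, where the other 13 lay between -4.5 and 21.5. For the named values that these libraries moved most, the value without 1 or both of them is given too. The labels were checked against markers. The summed level of 10 microglia markers was 15900 to 20500 cpm in CD45lo and 7770 to 9370 cpm in CD45hi libraries, and *P2ry12* and *Tmem119* were present in every library. The CD45hi libraries held more marker RNA of other myeloid cells. Their summed levels were 689 to 1190 cpm for 7 monocyte markers against 19.1 to 123 cpm in CD45lo, 1410 to 3900 against 639 to 1310 cpm for 10 neutrophil markers, and 616 to 2340 against 53.6 to 203 cpm for 5 border macrophage markers. The 7 T and NK cell markers summed to 10.6 to 140 cpm in CD45hi and at most 0.104 cpm in CD45lo, with *Cd3e* at 0 in 14 of the 15 libraries, and the 4 B cell markers to 7.6 to 27 against 3.41 to 13.1 cpm. Each difference between CD45hi and CD45lo below is therefore a difference between cell mixtures that also differ in these markers, whose part in the results was not tested. In sorted bulk samples, fewer cells of a type and less RNA per cell cannot be told apart.

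USPs are cysteine proteases. They cut the bond between ubiquitin and a lysine of the tagged protein, or between the ubiquitins of a chain, and so reverse the work of ubiquitin ligases. By doing so they change how long a protein lasts, where it goes in the cell and what it binds. Some act on histones (*Usp16*, *Usp21*, *Usp22*, *Usp49*), some on sorting at the endosome (*Usp8*), some at the proteasome (*Usp14*) or on mitochondria (*Usp30*), and several act on the signaling of immune receptors, which is how the family is best known in myeloid cells. *Usp10*, the member set beside its family here, removes ubiquitin from p53 and from the autophagy protein beclin 1 and binds the stress granule proteins G3BP1 and G3BP2. *Usp10* was one of the genes that the study named from its diet comparison of these same libraries, so its diet difference is not independent evidence.

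The promoters of the 2 members that the results turn on, *Usp2* and *Usp10*, are shown as the 250 bases before 1 RefSeq start of each gene (build GRCm38), 5′ to 3′ on the gene's strand, with CpG dinucleotides in capitals. The table of starts gives 1 start for each gene, which for *Usp2* is inside the span of the gene in GENCODE M21, downstream of the start of its longest transcript. *Usp2* lies at chr9:44067021-44095627 and *Usp10* at chr8:119910360-119957560, both on the plus strand. The windows printed are chr9:44084670-44084919 and chr8:119910110-119910359.
Usp2: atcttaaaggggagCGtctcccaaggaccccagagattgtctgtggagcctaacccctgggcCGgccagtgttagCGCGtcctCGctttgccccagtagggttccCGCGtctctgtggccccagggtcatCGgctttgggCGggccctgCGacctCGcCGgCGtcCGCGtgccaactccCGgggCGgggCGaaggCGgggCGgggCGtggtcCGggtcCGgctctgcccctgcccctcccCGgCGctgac
Usp10: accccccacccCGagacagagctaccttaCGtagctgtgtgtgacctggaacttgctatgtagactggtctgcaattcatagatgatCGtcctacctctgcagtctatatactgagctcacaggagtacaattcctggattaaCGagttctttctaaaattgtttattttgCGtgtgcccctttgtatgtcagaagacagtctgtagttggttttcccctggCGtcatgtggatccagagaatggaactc
The *Usp2* window holds 25 CpGs and 3 matches to the GC box letters GGGCGG, searched on both strands. The *Usp10* window holds 6 CpGs and none. A window was given for 38 of the 49 members, with a median of 23.5 CpGs against 6 over all 32851 windows of that length. GGGCGG was found in 65.8% of the members' windows and 32.7% of all. The E-box letters CACGTG were found in 7.9% and 6.0%, and the ETS letters CCGGAAG in 18.4% and 6.9%. These are matches of letters and not sites, genes with several starts have windows that were not searched, and the share of all windows includes many genes that these cells do not express.

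In the deposited TPM, a level per length that sums to the same total in each library, the highest members in CD45lo cells were *Usp48* at a mean of 158 TPM, *Usp8* at 136, *Usp7* at 135, *Usp24* at 127 and *Usp2* at 124 TPM. The ranges of these 5 over the 8 CD45lo libraries overlapped, from 97.2 to 163 TPM for *Usp2* and from 123 to 200 TPM for *Usp48*, so their order among themselves was within the spread. *Usp48* acts on histone H2A and on NF-κB, *Usp8* sorts receptors at endosomes, and *Usp7* acts on p53 and its ligase MDM2. In CD45hi cells the first 5 were *Usp48* (142 TPM), *Usp7* (134 TPM), *Usp16* (114 TPM), *Usp9x* (90.3 TPM) and *Usp8* (79.9 TPM), and *Usp2* came at place 18 with 35.4 TPM (11.2 to 74.6 TPM). *Usp16* acts on histone H2A, and *Usp9x* is a large X-linked member that stabilizes many proteins.

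At the low end, *Usp53*, a protein of tight junctions, *Usp27x*, a relative of *Usp22*, and *Usp50* had means of 0.83 to 3.32 TPM in the 2 cell types. *Usp20*, *Usp49* and *Usp54* had means of 1.68 to 6.05 TPM. *Usp44*, *Usp43*, *Usp26*, *Usp51* and the Y-linked *Usp9y* had no count in any library, which allows at most 3 counts, or 0.156 to 0.282 cpm depending on the library, from counting error alone. *Usp13*, a relative of *Usp5*, had counts in 1 library (1.19 cpm in CD45lo cells of WD replicate 2). *Usp29* had counts in 3 libraries, the highest of them 2.54 cpm in CD45hi cells of WD replicate 1.

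*Usp10* was at place 13 of the 42 members in CD45lo cells, with a mean of 48.5 TPM (25.5 to 65.8 TPM), and at place 10 in CD45hi cells, with 48.0 TPM (12.4 to 155 TPM). Its place rests on the transcripts assumed. The deposited transcript length of the gene, which varies with the transcripts that RSEM assigned, ran from 837 to 2316 bases between libraries. Its longest annotated protein-coding transcript has 3726 bases. Per kilobase of that transcript *Usp10* fell to places 24 and 23, and the order was led by *Usp8* in both cell types at 68.4 and 56.7 cpm per kilobase. In cpm, without regard to length, *Usp24* and *Usp9x* had the most counts in CD45lo cells (413 ± 62.5 and 393 ± 38.8 cpm on CD, SD, n = 4), and *Usp9x* and *Usp24* in CD45hi cells on CD (435 ± 97.3 and 370 ± 39.9 cpm, n = 4).

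**Figure D1:**
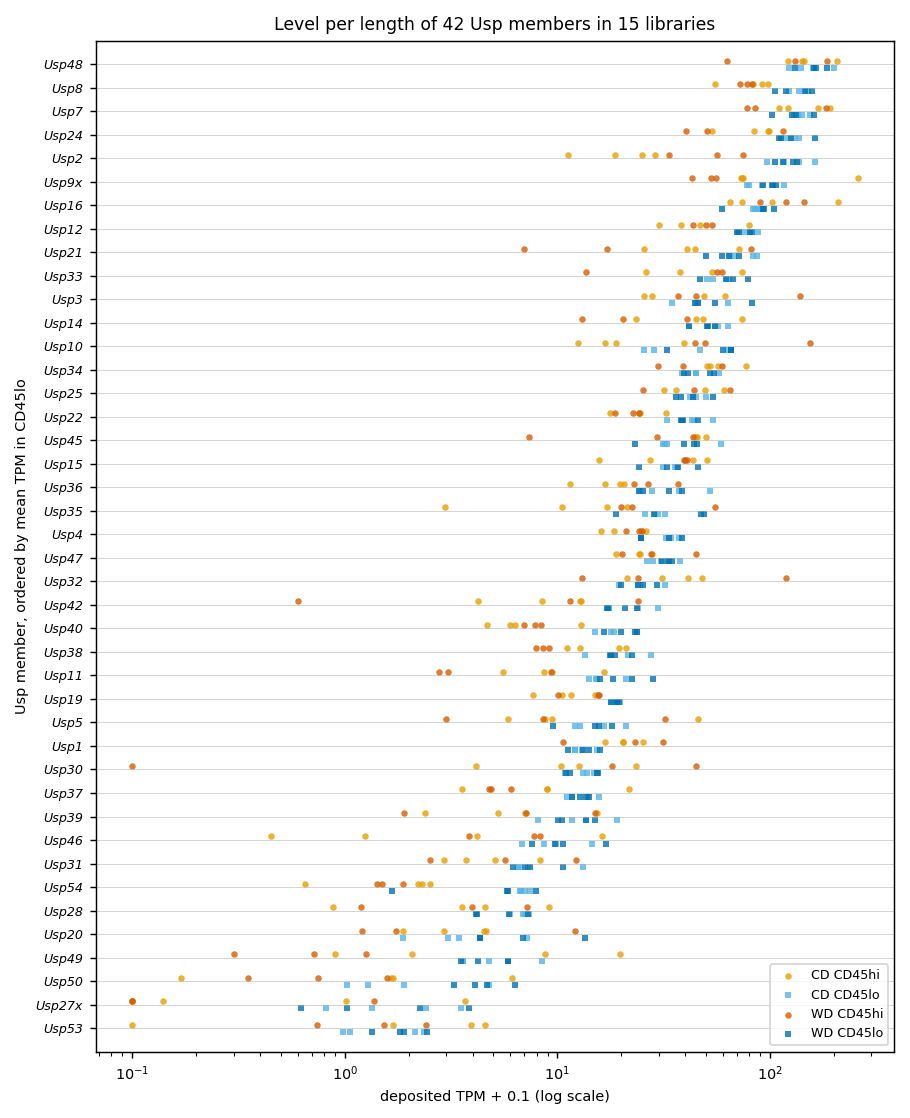
Deposited TPM (plus 0.1, log scale, horizontal axis) of the 42 members tested, ordered by their mean in CD45lo cells, with 1 point per library for CD45hi (circles) and CD45lo (squares) cells on CD or WD. *Usp48* leads with means of 158 TPM in CD45lo and 142 TPM in CD45hi cells, and *Usp2* shows the CD45hi circles, at 11.2 to 74.6 TPM, to the left of the CD45lo squares, at 97.2 to 163 TPM.

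Together the 49 members took 0.344 to 0.391% of all expected counts in the 8 CD45lo libraries and 0.270 to 0.330% in the 7 CD45hi libraries. The ranges did not overlap, and they were the same without the 2 libraries apart on PC2. On either diet the CD45hi share was lower, at 0.312 ± 0.0204% (SD, n = 4) against 0.370 ± 0.0225% (n = 4) on CD and 0.293 ± 0.0241% (n = 3) against 0.362 ± 0.0164% (n = 4) on WD. The share is a description and was not tested. It is a share of raw totals, without the scaling between libraries (TMM) used for the cpm values and tests. That scaling set the library size below the raw total in every CD45hi library and above it in every CD45lo library. The lower share is thus not shown on the scaled values, where the members' median log2 fold change was -0.06 on CD and -0.03 on WD.

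The comparison of CD45hi with CD45lo cells set a mixture with microglia, monocyte, neutrophil and border macrophage markers against cells richer in microglia markers. On CD, 1 of the 42 members passed edgeR's test against a change of at most 1.5-fold (glmTreat, false discovery rate (FDR) under 0.05 over all genes tested), and it was *Usp2*. The test called 3.98% of the 14967 genes tested (3.39% higher and 0.588% lower), and 2.38% of the members. *Usp2*, a deubiquitinase under circadian control that acts on cyclin D1, MDM2 and the clock protein PER1, fell in CD45hi cells. Its levels were 56, 62.5, 35.5 and 32.3 cpm in the 4 CD45hi libraries and 130, 161, 174 and 138 cpm in the 4 CD45lo libraries of CD-fed mice. Every CD45hi library lay below every CD45lo library, with a log2 fold change of -1.69 (SE 0.292, FDR = 0.00776, edgeR glmTreat), or 3.24-fold lower. It kept that call in all 28 other settings tried, including without the 2 libraries that stand apart.

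On WD the difference in *Usp2* was smaller. The CD45hi libraries had 84.6, 38.0 and 116 cpm and the CD45lo libraries 144, 132, 135 and 164 cpm. They did not overlap, but the log2 fold change of -0.86 (SE 0.313) had an FDR of 0.348 (edgeR glmTreat) and did not pass. The difference between the diets in this contrast, tested as an interaction, was 0.84 on the log2 scale (SE 0.418, FDR = 0.519, edgeR glmQLFTest), so the effect on CD was not shown to differ from that on WD. The expected counts of *Usp2* were whole numbers in every library, so no split of reads with another gene was seen. Whole counts do not exclude shared reads that were all assigned to 1 gene.

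No member passed on WD with edgeR's glmTreat, where the test called 5.18% of all genes (4.01% higher and 1.17% lower). At an unadjusted p under 0.05 there were 3 members on WD (*Usp1*, *Usp11* and *Usp49*) and 3 on CD (*Usp1*, *Usp2* and *Usp54*), or 7.14% of members on either diet against 17.9% and 14.0% of all genes. DESeq2 called 1 member on WD (*Usp49*), or 2.38% against 5.85% of all genes, and limma-voom none, with 4.0% of all genes. With the number in the deposited names as a replicate block, edgeR called 353 genes on WD in place of 775, and no member. The median log2 fold change of the members was -0.06 on CD and -0.03 on WD, beside 0.04 and 0.0 over all genes. The members were divided evenly by sign, with 21 of 42 above 0 on CD and 20 of 42 on WD, against 51.8% and 50% of all genes.

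*Usp1* had the highest log2 fold change of CD45hi over CD45lo cells among the members, on either diet. With its cofactor WDR48 it removes ubiquitin from FANCD2 and PCNA in DNA repair. The CD45hi libraries had 49.4, 37.9, 60.9 and 53.0 cpm on CD and 80.0, 28.0 and 58.0 cpm on WD, and the 8 CD45lo libraries had 17.5 to 29.8 cpm. On CD the libraries did not overlap. On WD replicate 2 of CD45hi lay within the CD45lo range. The log2 fold changes were 1.13 (SE 0.323, FDR = 0.186) and 1.26 (SE 0.343, FDR = 0.117), and neither passed edgeR's glmTreat. Tested for any change instead of a change above 1.5-fold, it passed on both diets (where that test called 8.03% and 9.12% of all genes), with FDR values of 0.0382 and 0.0269. Without the 2 libraries apart on PC2 the value on WD was 0.9 (FDR = 0.292). The FDR over all settings ran from 0.0382 to 0.62 on CD and from 0.0219 to 0.452 on WD.

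*Usp49*, a deubiquitinase of histone H2B, had the lowest value on WD, at -3.06 (SE 0.839, FDR = 0.0528, edgeR glmTreat). Its CD45hi libraries on WD had 3.86, 1.74 and 1.23 cpm, below the 12.7, 23.8, 13 and 26.4 cpm of CD45lo. This value depends on a neighbor in the annotation. *Usp49* (chr17:47630690-47686738) shares 4392 of its 8581 exon bases (51.2%) with *Gm20517*, a gene annotated on the same strand. In the CD45hi library of WD replicate 2, *Gm20517* held 36.6 cpm, while it held at most 6.37 cpm in the other 14. With the counts of both genes added, the WD CD45hi libraries had 3.86, 38.3 and 1.76 cpm, and the log2 fold change of *Usp49* became -0.39 (FDR = 0.947). Without the 2 libraries apart on PC2 the value was -3.66 (FDR = 0.0142). Its FDR over all settings ran from 0.0142 to 0.947.

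For some members the libraries of the 2 cell types did not overlap. On CD, *Usp1* and *Usp34* were higher in every CD45hi library and *Usp2*, *Usp8*, *Usp10*, *Usp21* and *Usp54* were lower, or 4.76% and 11.9% of members against 8.26% and 8.22% of all genes. On WD, *Usp15* was higher and *Usp2*, *Usp11*, *Usp24*, *Usp37*, *Usp38*, *Usp40* and *Usp49* were lower, or 2.38% and 16.7% of members against 10% and 13.4% of all genes. Apart from *Usp2* on CD, none of these passed the test. *Usp54* had 3.41, 8.28, 2.2 and 9.59 cpm in CD45hi and 16.5 to 20.2 cpm in CD45lo libraries on CD (log2 fold change -1.69, SE 0.534, FDR = 0.165, edgeR glmTreat), and on WD 1 CD45lo library, at 5.38 cpm, fell below all 3 CD45hi libraries (-1.28, SE 0.583, FDR = 0.339). *Usp34*, which acts in Wnt signaling on axin, had 261 to 433 cpm against 195 to 256 cpm on CD (0.64, SE 0.245, FDR = 0.699), and *Usp25*, a regulator of interleukin-17 signaling, had a log2 fold change of 0.46 (SE 0.264, FDR = 0.914), and of 0.22 without CD replicate 4. *Usp34* also had counts shared with other genes in all 15 libraries.

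*Usp11*, which acts in DNA repair, had 25.7, 7.92 and 7.59 cpm in CD45hi and 25.9 to 42.5 cpm in CD45lo libraries on WD (log2 fold change -1.3, SE 0.488, FDR = 0.234, edgeR glmTreat). Without WD replicate 1 of CD45hi, the library with 25.7 cpm and one of the 2 apart on PC2, the value was -2.12 (FDR = 0.0283). The remaining extremes rested on 1 library each. *Usp30*, which opposes the removal of mitochondria by autophagy, had 0, 114 and 43.2 cpm in CD45hi cells on WD, and *Usp20*, which acts on membrane receptors, had 44.2, 0.671 and 5.6 cpm. Their log2 fold changes of 1.23 (SE 0.969) and 0.93 (SE 0.933) turned to -0.05 without replicate 2 and to -1.49 without replicate 1.

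**Figure D2:**
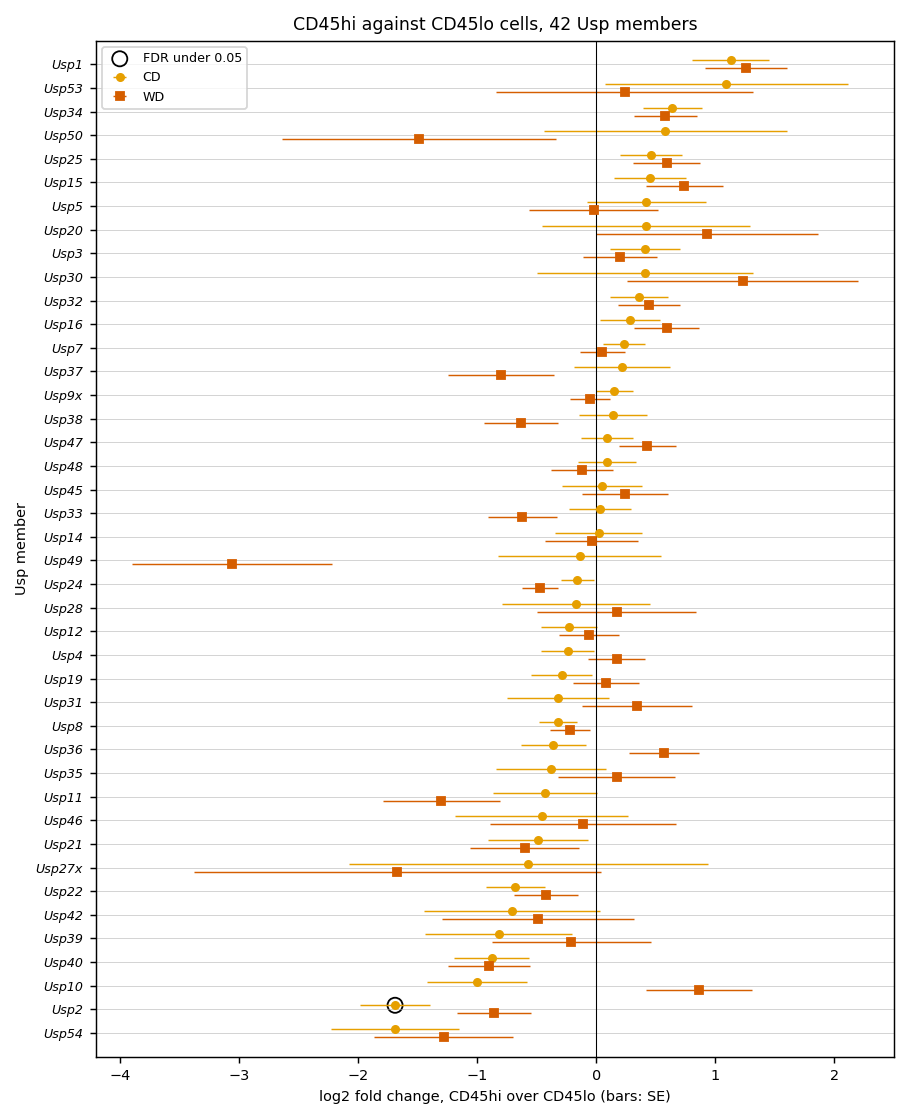
Log2 fold change of CD45hi over CD45lo cells (horizontal axis, bars are SE) for the 42 members on CD (circles) and WD (squares), ordered by the value on CD. The ring marks *Usp2* on CD at -1.69, the only point with an FDR under 0.05, while *Usp1* lies at 1.13 and 1.26 on CD and WD.

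The comparison of WD with CD within a cell type asked what chronic consumption of the diet changes in these cells. In CD45hi cells no member passed edgeR's glmQLFTest (FDR under 0.05, no limit on fold), where the test called 0.254% of all genes (0.0601% higher and 0.194% lower). At an unadjusted p under 0.05 there were 6 members (*Usp2*, *Usp10*, *Usp36*, *Usp37*, *Usp38* and *Usp49*), or 14.3% against 17.6% of all genes. DESeq2 called 3 members (*Usp10*, *Usp36* and *Usp49*), or 7.14% against 6.88% of all genes. edgeR's newer quasi-likelihood form called 1 (*Usp10*), or 2.38% against 1.68% of all genes, and limma-voom called none, with 0.18% of all genes. The median over the members was 0.01 on the log2 scale, beside -0.02 over all genes, and 22 of 42 were above 0.

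*Usp10* had the highest value of the family in this comparison and the lowest FDR. Its levels were 22.3, 20, 13.1 and 6.63 cpm in the CD45hi libraries of CD-fed mice and 43.2, 25.2 and 102 cpm in those of WD-fed mice. The groups did not overlap, but the highest library on CD and the lowest on WD were close. The means were 15.5 ± 7.08 cpm (SD, n = 4) and 56.9 ± 40.4 cpm (n = 3), and the log2 fold change was 1.88 (SE 0.452, FDR = 0.0732, edgeR glmQLFTest). The study called *Usp10* in this comparison at an FDR under 0.05, which this fit did not reach. WD replicate 3 carried part of it: without that library the value was 1.14 (FDR = 0.157), and without WD replicate 2, the lowest on WD, it was 2.23 (FDR = 0.0223). Without the 2 libraries apart on PC2 it was 1.79 (FDR = 0.054). The FDR ran from 0.00171 with DESeq2 to 0.785 with the CD45hi libraries fitted alone, where the SE was 0.643. The direction was kept in all 27 other settings.

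In CD45lo cells *Usp10* had 28.8, 29.8, 31.5 and 33.6 cpm on CD and 27.3, 26.2, 35.9 and 35.8 cpm on WD. The diets overlapped, and the log2 fold change was 0.02 (SE 0.416, FDR = 1.0, edgeR glmQLFTest). This SE rests on a spread estimated over all 4 groups. With only the CD45lo libraries fitted it was 0.174. The difference between the cell types in the effect of diet on *Usp10* was 1.86 (SE 0.613) with an FDR of 0.365, so it did not pass either. Set against CD45lo cells, *Usp10* in CD45hi cells was lower on CD, with no overlap (-1.0, SE 0.422, FDR = 0.444, edgeR glmTreat), and had a value of 0.86 on WD (SE 0.446, FDR = 0.477), or 0.13 without WD replicate 3. On CD the CD45hi libraries thus lay below the CD45lo libraries, and on WD they lay on both sides of them. *Gm20388*, annotated on the same strand over the *Usp10* locus, shares 99 of the 9559 exon bases of *Usp10* (1.0%). The expected counts of *Usp10* were whole numbers in every library, which does not exclude shared reads all assigned to 1 gene. With the counts of both genes added, the CD45hi libraries had 41.1, 23.3, 38.1 and 20.1 cpm on CD and 53.4, 34.0 and 107 cpm on WD. The diets then overlapped, and the sum was not tested.

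Markers of other cells in the CD45hi libraries were compared between the diets. The monocyte markers summed to 847 to 1090 cpm in the 3 WD libraries and 689 to 1190 cpm in the 4 CD libraries, and the neutrophil markers to 1410 to 2440 and 1640 to 3900 cpm. The microglia markers summed to 8400 to 9080 and 7770 to 9370 cpm, the border macrophage markers to 616 to 2340 and 1680 to 1850 cpm, and the T and NK cell markers to 27.2 to 140 and 10.6 to 51.6 cpm. The astrocyte markers summed to 57.5 to 241 cpm on WD and 38.8 to 86.1 cpm on CD, the oligodendrocyte markers to 117 to 230 and 96.2 to 150 cpm, the neuron markers to 0.134 to 6.36 and 5.7 to 27.4 cpm and the B cell markers to 8.37 to 27 and 7.6 to 23.1 cpm. These ranges overlapped, while the endothelial cell and pericyte markers, at 82.9 to 100 cpm on WD and 64.4 to 82.5 cpm on CD, did not overlap. The median log2 fold change of WD over CD was 2.38 for the astrocyte, 1.36 for the oligodendrocyte and 0.52 for the endothelial cell and pericyte markers tested. It was 1.24 for the T and NK cell, 0.99 for the B cell, 0.96 for the neuron and 0.05 for the monocyte markers. For the neutrophil, border macrophage and microglia markers it was -0.93, -0.21 and -0.08. No marker was called by edgeR's glmQLFTest. Their part in the *Usp10* difference was not tested.

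The rest of the family in CD45hi cells ranged from -3.04 for *Usp49* to 0.88 for *Usp36*. *Usp36*, a nucleolar deubiquitinase that acts in ribosome production and on MYC, had 27.5, 38.8, 42 and 44.8 cpm on CD and 51.5, 105 and 55 cpm on WD, with no overlap (0.88, SE 0.296, FDR = 0.15, edgeR glmQLFTest). Without WD replicate 2, the library with 105 cpm, the value was 0.48 (FDR = 0.364). *Usp35* had 21.2, 32.9, 26.0 and 4.12 cpm on CD and 42.1, 36.8 and 34.8 cpm on WD, also with no overlap (0.85, SE 0.494, FDR = 0.387). Without CD replicate 4, the library with 4.12 cpm, it was 0.51, and without both libraries apart on PC2 it was 0.42. *Usp38*, a relative of *Usp35* that acts on the antiviral kinase TBK1, went the other way, at 41.3, 64.0, 35.6 and 69.3 cpm on CD and 27.2, 32.5 and 28.5 cpm on WD (-0.84, SE 0.313, FDR = 0.183). No overlap was thus seen for 3 members higher on WD (7.14%) and 1 lower (2.38%), against 2.58% and 3.19% of all genes. Of these, *Usp36* had counts shared with other genes in 14 libraries and *Usp38* in 13.

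*Usp37*, which stabilizes cyclin A, had a value of -1.03 (SE 0.448, FDR = 0.248), with 120 cpm in CD replicate 4, one of the libraries apart on PC2, and 17.5 to 45.2 cpm in the other 6. Without that library it was -0.34. *Usp49* had 50.9, 9.94, 11.5 and 2.57 cpm on CD (-3.04, SE 0.838, FDR = 0.104). Without CD replicate 1, the library with 50.9 cpm, the value was -1.82 (FDR = 0.17), without the 2 libraries apart on PC2 it was -4.01 (FDR = 0.0314), and with the counts of *Gm20517* added the value was -0.51 (FDR = 0.802). *Usp2* had a value of 0.77 (SE 0.306, FDR = 0.211), with its diets overlapping.

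**Figure D3:**
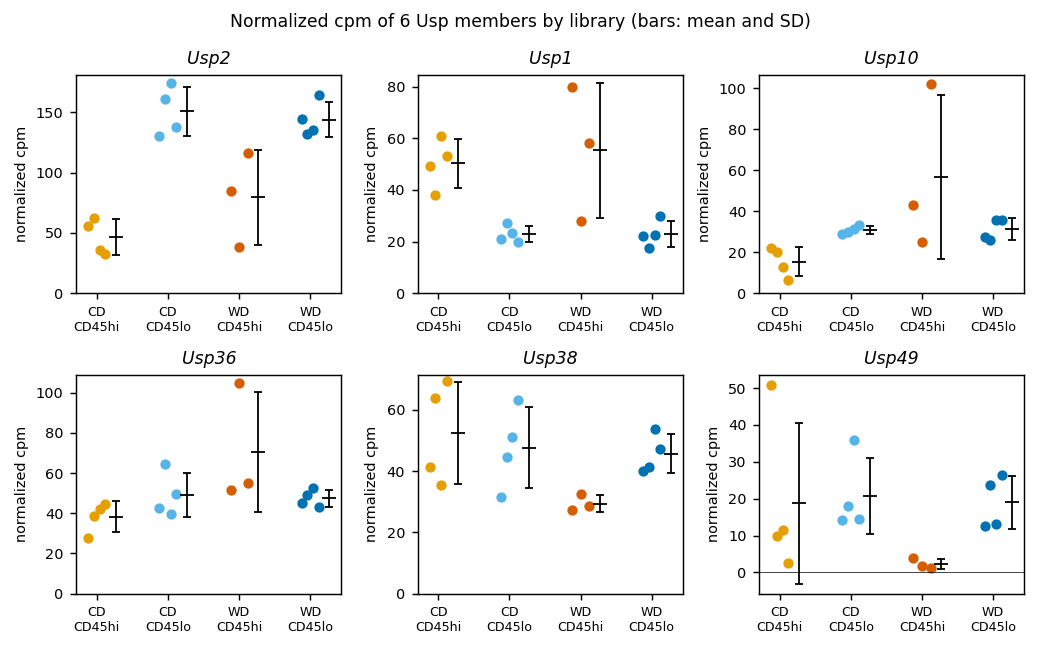
Normalized cpm (vertical axis) of 6 members in each library of the 4 groups, with bars for the mean and SD (n = 4, and n = 3 for WD CD45hi). *Usp2* separates CD45hi from CD45lo on CD (32.3 to 62.5 against 130 to 174 cpm), and *Usp10* in CD45hi cells runs from 6.63 to 22.3 cpm on CD and from 25.2 to 102 cpm on WD while the CD45lo libraries stay between 26.2 and 35.9 cpm.

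In CD45lo cells no member passed edgeR's glmQLFTest for diet, where 0.0% of all genes did, and no member had an unadjusted p under 0.05, against 123 genes (0.822%). DESeq2 and limma-voom called no member either, and over all genes DESeq2 called 4 and limma-voom 0. Among members with at least 10 cpm the values ran from -0.44 for *Usp54* (SE 0.52) to 0.3 for *Usp35* (SE 0.46), with *Usp28* at -0.36, *Usp21* at -0.35, *Usp45* at 0.17 and *Usp11* at 0.15. *Usp28* acts on MYC, *Usp21* on histone H2A and *Usp45* in DNA repair. *Usp21* alone had no overlap, at 39.0 to 47.2 cpm on CD and 29.6 to 37.3 cpm on WD, or 2.38% of members, with 1.29% of all genes lower in this way. The median over the members was -0.04, beside 0.0 over all genes.

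**Figure D4:**
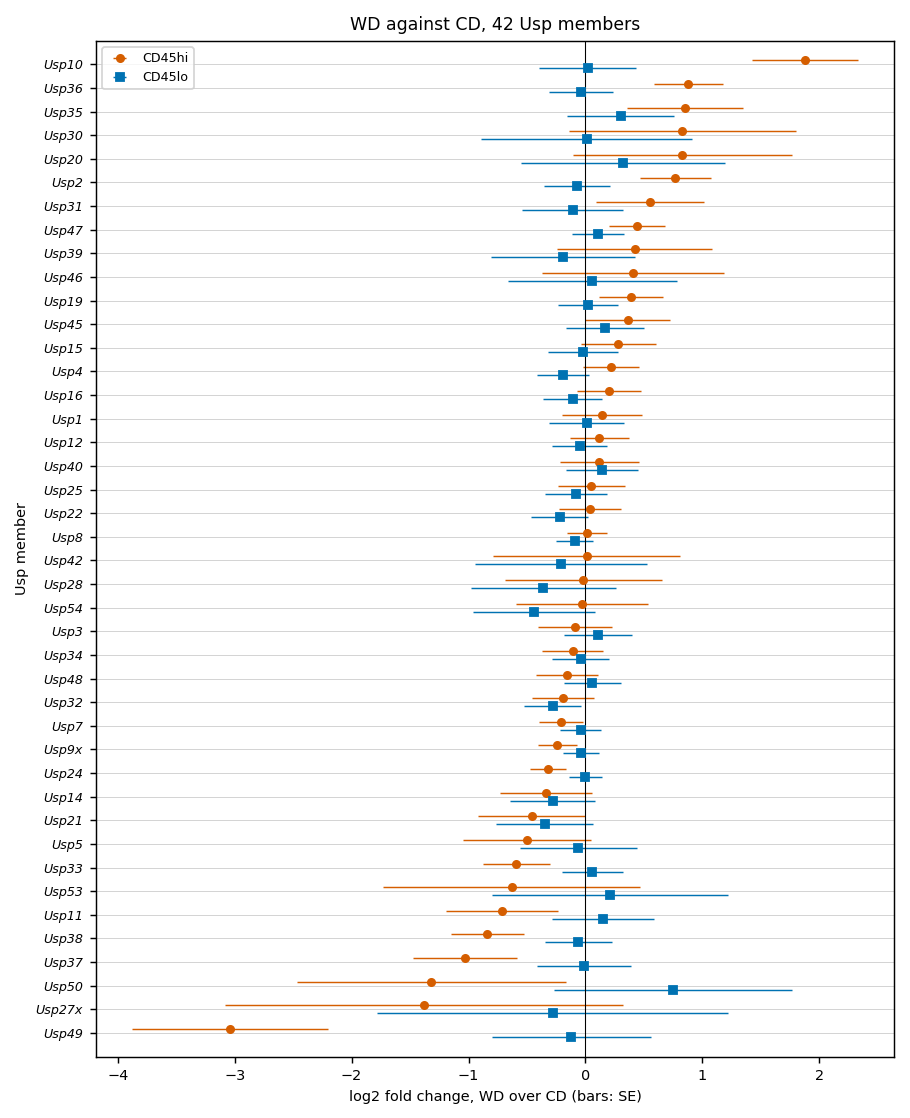
Log2 fold change of WD over CD (horizontal axis, bars are SE) for the 42 members in CD45hi (circles) and CD45lo (squares) cells, ordered by the value in CD45hi cells. *Usp10* lies at 1.88 in CD45hi and 0.02 in CD45lo cells, *Usp49* at -3.04 in CD45hi cells, and no point has an FDR under 0.05.

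No member passed the interaction of diet and cell type with edgeR's glmQLFTest, which called 1 of all genes tested (0.00668%). At an unadjusted p under 0.05 there were 3 members, *Usp10*, *Usp36* (0.93, SE 0.405, FDR = 0.455) and *Usp49* (-2.92, SE 1.05, FDR = 0.378), or 7.14% against 10.1% of all genes. Neither DESeq2 nor limma-voom called a member. The pattern of *Usp10* over the 15 libraries was most like those of *Usp46*, *Usp35* and *Usp2*, with Pearson's r of 0.74, 0.73 and 0.65 between log2 cpm values. Within the 7 CD45hi libraries r was 0.75, 0.73 and 0.9, and within the 8 CD45lo libraries it was -0.07, 0.82 and 0.3. The 15 points share normalization and fall into 2 cell types, and the values are given as a description. *Usp46*, which also works with WDR48, had 13.2, 48.8, 3.78 and 1.22 cpm in CD45hi cells on CD and 26.2, 13.3 and 27.3 cpm on WD.

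The spread between libraries was larger in CD45hi than in CD45lo cells for most of the family, as it was for most genes. Among the 39 members with a mean of at least 10 cpm, the SD of log2 cpm (prior count of 2) was larger in CD45hi than in CD45lo cells for 38 on CD (97.4%, against 89.6% of 8253 genes at that level) and for 31 on WD (79.5%, against 84.0%). The median SD of members was 0.5 in CD45hi and 0.193 in CD45lo cells on CD, and 0.646 and 0.224 on WD. Over all genes it was 0.61 and 0.232, and 0.652 and 0.26. For *Usp10* the SD was 0.783 and 0.0966 on CD and 1.02 and 0.244 on WD. Without the 2 libraries apart on PC2 the counts were 36 of 39 on CD (92.3%, against 82.2% of all genes) and 23 of 39 on WD (59%, against 69.4%), where 2 CD45hi libraries then remained and the members' median SD in CD45hi cells was 0.329. These values are descriptions. The CD45hi groups also differ among their libraries in the markers of other cells, such as the border macrophage markers at 616 to 2340 cpm on WD, and their part in the spread was not tested.

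**Figure D5:**
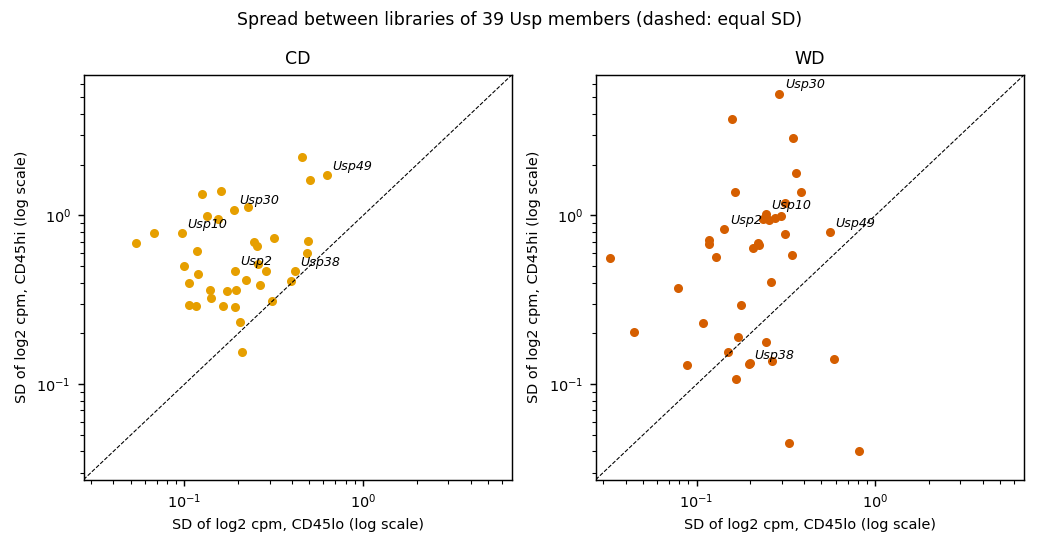
SD of log2 cpm between libraries in CD45hi (vertical axis) against CD45lo cells (horizontal axis), both on log scales, for the 39 members with a mean of at least 10 cpm, on CD (left) and WD (right). On CD 38 of 39 points and on WD 31 of 39 lie above the dashed line of equal SD, with *Usp30* at 5.26 against 0.291 on WD.

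Genes that work with the family were tested in the same fits. With edgeR, 0 of 3 genes with the USP fold but another name (*Cyld*, *Pan2* and *Uspl1*) and 0 of 18 cofactors and partners of members, such as *Wdr48*, *G3bp1* and *Gmps*, passed any of the 5 tests. At an unadjusted p under 0.05 there were *Uspl1*, between cell types on CD, for diet in CD45hi cells and for the interaction, and *Stam2* and *Wdr48* for diet in CD45hi cells, with *Stam2* also for the interaction. DESeq2 called *Uspl1* and *Stam2* for diet in CD45hi cells, and limma-voom called none. Of 31 tested genes of the other deubiquitinase families, 1 was called higher in CD45hi cells on either diet, where 3.39% (CD) and 4.01% (WD) of all genes were. It was *Tnfaip3*, which encodes A20, a brake on NF-κB signaling. It had 437 to 592 cpm in CD45hi and 125 to 236 cpm in CD45lo libraries on CD (1.47, SE 0.201, FDR = 0.00216, edgeR glmTreat) and 414 to 691 against 160 to 217 cpm on WD (1.53, SE 0.213, FDR = 0.00209). In the diet comparisons and the interaction, edgeR's glmQLFTest called 0 of the 58 genes of the 4 lists (these 3 and one of 6 ubiquitin precursor and E1 genes). Over all genes it called 0.254%, 0.0% and 0.00668% in CD45hi cells, in CD45lo cells and for the interaction. At an unadjusted p under 0.05 there were 5, 0 and 2 of the 58, against 17.6%, 0.822% and 10.1% of all genes. DESeq2 called 2, 0 and 0, against 6.88%, 0.0267% and 1.26% of all genes, and limma-voom none. The median log2 fold changes of the listed genes between the cell types were -0.05, -0.07, 0.1 and 0.36 on CD for the USP-fold, cofactor, other deubiquitinase and ubiquitin lists.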

How the data were processed

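Sorted cells were sequenced as poly(A) libraries (TruSeq v2, 75 bp paired-end) on 2 Illumina platforms, and which library ran on which is not given in the sources used here. The authors trimmed bases under Phred 30 with NGS QC Toolkit, aligned to mm10 with Bowtie2 and quantified genes with RSEM 1.2.12; bcl2fastq 2.18.0.12 is also named. The annotation release and strand setting are not given in the sources used here. The deposited expected counts are RSEM's estimates, which split reads shared between genes, and the deposited TPM values are scaled by RSEM's effective transcript lengths. Fractional counts, a mark of shared reads, occurred for 12 members in at least 1 library and for 4 (*Usp9x*, *Usp34*, *Usp3* and *Usp50*) in every library. *Usp50* and *Usp8* overlap on opposite strands, but *Usp8* had no fractional count in any library.

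Expected counts were rounded. Genes that reached 1 cpm in 2 or more libraries (14967 of 38924) were scaled by TMM and fitted with edgeR 4.0.16 (earlier quasi-likelihood form, R 4.3.3) over all 15 libraries in 4 groups. The spread of each gene was estimated over the 4 groups together, so an SE within 1 cell type also reflects the spread of the other. CD45hi was compared with CD45lo within each diet by glmTreat against 1.5-fold, and WD with CD within each cell type and the interaction by glmQLFTest, with Benjamini-Hochberg adjustment over all genes tested and a threshold of 0.05. Alternatives were DESeq2 1.42.0, limma-voom (limma 3.58.1), other filters, scaling, tests, replicate blocks and libraries left out; the scripts were tested on simulated counts. A count of 0 allows at most 3 counts. Positions are from GENCODE M21 (GRCm38), which held 37607 of the IDs and all 49 members.

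Named with values were *Usp10*, members called, the 3 highest and 3 lowest log2 fold changes of each comparison between 2 groups among members whose higher group averaged 10 cpm or more, the 5 highest and 5 lowest in TPM, and the 3 most like *Usp10*. Others were named after their values were seen. The number in the deposited names was taken to pair CD45hi with CD45lo libraries of a mouse, which no source used here states outright; deviations of such pairs from their group means correlated at 0 to 0.069. The members and gene lists were chosen with earlier results of these data known. The result of 1 listed gene is not reported here.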

Additional observations from a re-analysis of the deposited data

Results flagged for a closer look

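For 27 named members, each group of 4 libraries (81 in all) was examined for a library far from the other 3 by Dixon's ratio of its gap to the group's range, at the 95% critical value. Chance alone gives about 1 in 20 such groups, and 4 were found here. In the CD45lo group on WD, *Usp54* was lowest in replicate 4, at 5.38 cpm against 16.5 to 17.2 cpm (ratio 0.942), *Usp16* was lowest in the same library, at 86.6 cpm against 114 to 120 cpm (0.837), and *Usp24* was lowest in replicate 3, at 394 cpm against 418 to 421 cpm (0.885). In the CD45lo group on CD, *Usp25* was highest in replicate 3, at 112 cpm against 96.8 to 97.9 cpm (0.924). The CD45hi group on WD has 3 libraries and was not examined.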

How the results depend on the processing

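Members called. Between cell types on CD the count was 1 (*Usp2*) in every setting but the test for any change, where it was 2 (*Usp1* and *Usp2*). Of 42 members, 1 is 2.38%, 2 are 4.76% and 3 are 7.14%. The share of all genes called on CD was 8.03% with the test for any change and 2.45 to 5.49% otherwise. On WD it was 0, where 5.18% of all genes were called. It was 1 (*Usp49* in each) with DESeq2 (5.85% of all genes), with a filter of 5 cpm (6.62%) and with only the 2 groups fitted (4.45%). It was 2 with the test for any change (*Usp1* and *Usp49*, 9.12% of all genes) and 2 without the 2 libraries apart on PC2 (*Usp11* and *Usp49*, 7.03%). For WD against CD in CD45hi cells it was 0, where 0.254% of all genes were called. It was 3 with DESeq2 (*Usp10*, *Usp36* and *Usp49*, 6.88% of all genes) and 1 with edgeR 4's quasi-likelihood form (*Usp10*, 1.68%). Without the 2 libraries it was 2 (*Usp11* and *Usp49*, 1.97%). With each library left out in turn the counts ran from 1 to 1 and from 0 to 1 between cell types on CD and WD, and from 0 to 2 for diet in CD45hi cells. On WD the call was *Usp49* without CD CD45hi replicate 1 or 4 (5.52% and 6.19% of all genes). It was *Usp11* without WD CD45hi replicate 1 (5.12%) and *Usp1* without WD CD45hi replicate 2 (5.63%). For diet it was *Usp49* without CD CD45hi replicate 4 (0.518% of all genes), and *Usp2* and *Usp10* without WD CD45hi replicate 2 (1.92%). In CD45lo cells and for the interaction the count was 0 throughout. The cause of these changes was not tested.

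*Usp10* for diet in CD45hi cells was 1.9 with DESeq2 (FDR = 0.00171), 1.88 with edgeR 4's form (FDR = 0.0436) and 1.14 to 2.23 with 1 library left out. In CD45lo cells its value near 0 changed sign, to -0.00356 with no filter on low counts, and ran from -0.06 to 0.09 with 1 library left out. Its other ranges with 1 library left out were -1.22 to -0.74 and 0.13 to 1.22 between cell types on CD and WD, and 1.12 to 2.22 for the interaction. Between cell types on WD, *Usp20* turned to -0.89 and *Usp30* to -1.36 with limma-voom, and *Usp20* to -1.49 without the 2 libraries apart on PC2. With 1 library left out *Usp20* ran from -1.49 to 1.5 and *Usp30* from -0.05 to 1.81. The alternatives added after seeing the data were the fit without these 2 libraries, the counts of *Gm20517* added to *Usp49*, the order per kilobase of longest transcript and other settings of the SD.

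Replicate numbers in the titles and in the deposited names pair the same libraries on CD and different ones on WD. Deviations of CD45hi and CD45lo libraries with the same title number correlated at -0.022 to 0.069. With the replicate block by title, members called were 1, 0, 0, 0 and 0 in the 5 tests and *Usp10* for diet in CD45hi cells was 1.71 (FDR = 0.221). With the replicate block by deposited name *Usp20* turned to -0.39 and *Usp30* to -0.04 between cell types on WD, members called were 1 on CD, 0 on WD and 0 for the interaction, with 412 and 353 genes called between cell types in place of 595 and 775, and no call of a member changed. The diet comparisons could not be fitted with it, since each number has 1 diet. No fit with only 2 groups exists for the interaction. Depth limits members under about 10 cpm, such as *Usp27x*, *Usp50* and *Usp53*.

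Over all genes, the 38 calls for diet in CD45hi cells became 1030 with DESeq2, 252 with edgeR 4's form, 68 with a filter of 5 cpm, 2 with the title block, 1 with a limit of 1.5-fold, 0 with only the 2 groups, 290 without the 2 libraries apart on PC2 and 1 to 286 with 1 library left out. Between cell types on WD the fit without these 2 libraries called 1036 genes. The 1 call for the interaction became 188 with DESeq2, and the 0 for diet in CD45lo cells became 4. Between cell types the test for any change called 1202 on CD and 1365 on WD against 595 and 775. With limma-voom the median over all genes shifted to -0.22 and -0.27 (log2), from 0.04 and 0.0, and the calls were 404 higher and 138 lower on CD, against 507 and 88.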
